A study of Ovis aries with 30 samples.

Results

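Perirenal brown adipose tissue (BAT) was compared with thyroid (TH) tissue in newborn Romney lambs that had been kept at 4 °C for 2 days. The comparison used 12 of the 30 RNAseq libraries of the series, 6 of BAT and 6 of thyroid, chosen by the words for tissue and cold treatment in their names. Each library held 1 tissue of 1 lamb, and both tissues of a lamb carried the same animal number, so that the tissues were compared within lambs, which are called lambs 1 to 6 here. The labels name no genetic modification and no drug. The other libraries came from 6 lambs kept at 20–22 °C for 2 days (ambient temperature, AT) and from 3 control lambs sampled at the start. Pieces of whole tissue were sequenced, so that fewer cells of a type and less RNA per cell cannot be told apart. The animals of each group were sampled at a single time, and no tissue was sorted into cell types.

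Brown fat is a heat-producing tissue. Its adipocytes store triglyceride in small droplets and burn fatty acids in many mitochondria, where uncoupling protein 1 lets protons flow back without making ATP. Noradrenaline switches this on through adrenergic receptors and cAMP, and in newborn lambs the fat around the kidneys is the best-known depot of this kind. The thyroid is built of follicles of epithelial cells, which take up iodide, oxidise it and attach it to thyroglobulin in the follicle lumen, and later take thyroglobulin back and digest it to release thyroid hormone. It also holds parafollicular C cells, which secrete calcitonin. The hormone reaches brown fat, where deiodinases convert it and nuclear receptors respond to it.

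Levels are given as counts per 1000000 (CPM) after scaling by trimmed mean of M-values (TMM). Differences are given as log2FC of BAT minus thyroid, so that a positive value is higher in BAT. The standard error beside each log2FC was derived from the edgeR fit. Calls needed |log2FC| ≥ 1 together with an adjusted p below 0.05. The libraries held 32844683–37025998 counts in BAT and 27222526–28612442 in thyroid. In BAT 54.2–75.5% of these counts lay in LOC114112617 and LOC114115287, against 5.95–10.2% in thyroid, so that the other genes of BAT had 9081850–15739402 counts and those of thyroid 24902493–25972894. The BAT library of lamb 1 had the fewest counts outside these genes and the highest share in genes annotated as rRNA, 3.11% against 0.520–0.900% in the other BAT libraries. Genes at low level were thus measured with less depth in BAT than in thyroid. The paper also reports a lower mean RNA integrity number in BAT than in thyroid, and a larger share of reads mapped in BAT. These differences go with tissue and cannot be told apart from it.

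The tissues separated in every lamb. The first principal component held 79.4% of the variance and separated all 6 BAT libraries from all 6 thyroid libraries. Of 16518 genes tested, 6292 were called (38.1%), with 3358 higher in BAT (20.3%) and 2934 higher in thyroid (17.8%). Among the tested genes, 645 had under 10 reads in every library of 1 tissue and so passed the filter through the other tissue alone. Of these 645, 616 were called, 88 higher in BAT and 528 higher in thyroid. The filter thus came close to fixing these calls, which are included in the shares above. The ranges of the tissues did not overlap for 7858 genes (47.6%), of which 5264 were also called. Over all tested genes the median log2FC was -0.00. When the libraries were scaled to the study's reference genes ACTB, RPL19 and HUWE1 (log2FC -0.10 ± 0.12, -0.44 ± 0.11 and -0.33 ± 0.12, none called), the median became 0.33 and the split became 4475 higher in BAT against 2192 higher in thyroid. All counts of gene lists given here can be read against the shares for all genes, and the lists overlap in a few members.

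**Figure D1:**
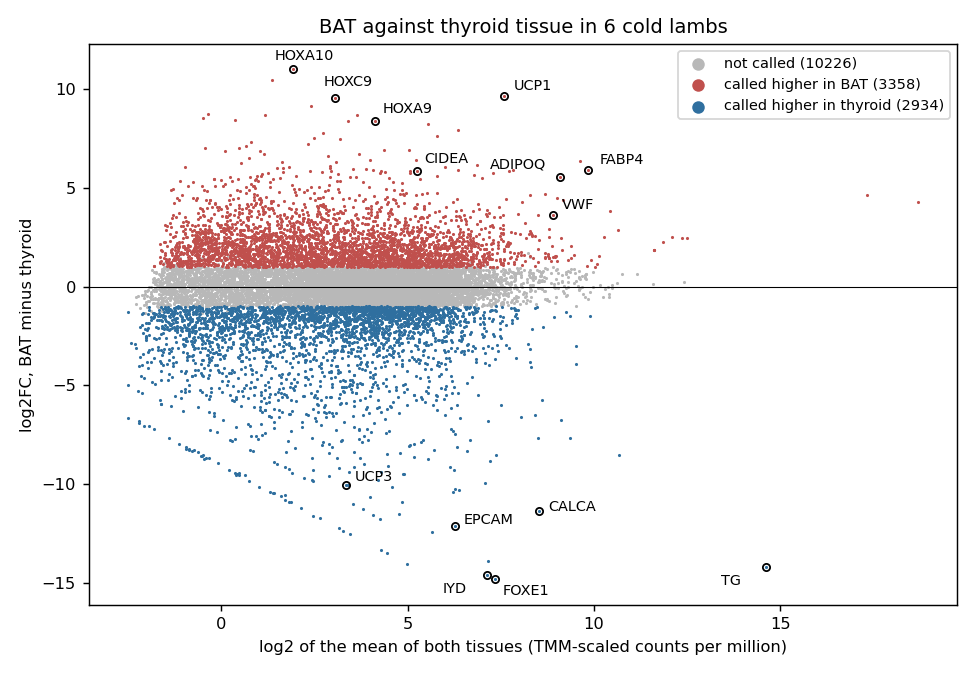
Each point is 1 of 16518 tested genes, with the log2 of its mean level over both tissues on the x axis and log2FC of BAT minus thyroid on the y axis. The 3358 genes called higher in BAT lie above 1 and the 2934 called higher in thyroid lie below -1, and the diagonal line of points at the lower left is formed by genes with no or almost no counts in BAT, whose fitted log2FC depends on the prior count.

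The markers of the labelled tissues were found where the labels placed them, in every lamb. TG, the gene of thyroglobulin (chromosome 9, 22956462–23207959, minus strand, Oar_rambouillet_v1.0), had 50988, 50296, 55812, 49693, 42097 and 54034 CPM in the thyroid of lambs 1 to 6. It took 6.88–9.26% of all thyroid counts and was the gene with the highest level per kb of exon in this tissue. In BAT of the same lambs it had 12, 7.23, 3.11, 0.926, 1.30 and 0.493 CPM. The log2FC was -14.20 ± 0.83 (edgeR adjusted p = 4.94e-07). UCP1, the uncoupling protein of brown fat (chromosome 17, 18691987–18698653, plus strand), had 566, 473, 353, 480, 294 and 151 CPM in BAT. In thyroid it had 3.88, 0.175, 0.0664, 0.379, 0.132 and 0.356 CPM, the highest value being that of lamb 1. The log2FC of UCP1 was 9.67 ± 0.68 (edgeR adjusted p = 1.94e-06). The tissues did not overlap for either gene. Within BAT, UCP1 was highest in lamb 1 and lowest in lamb 6, which had 151 CPM.

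**Figure D2:**
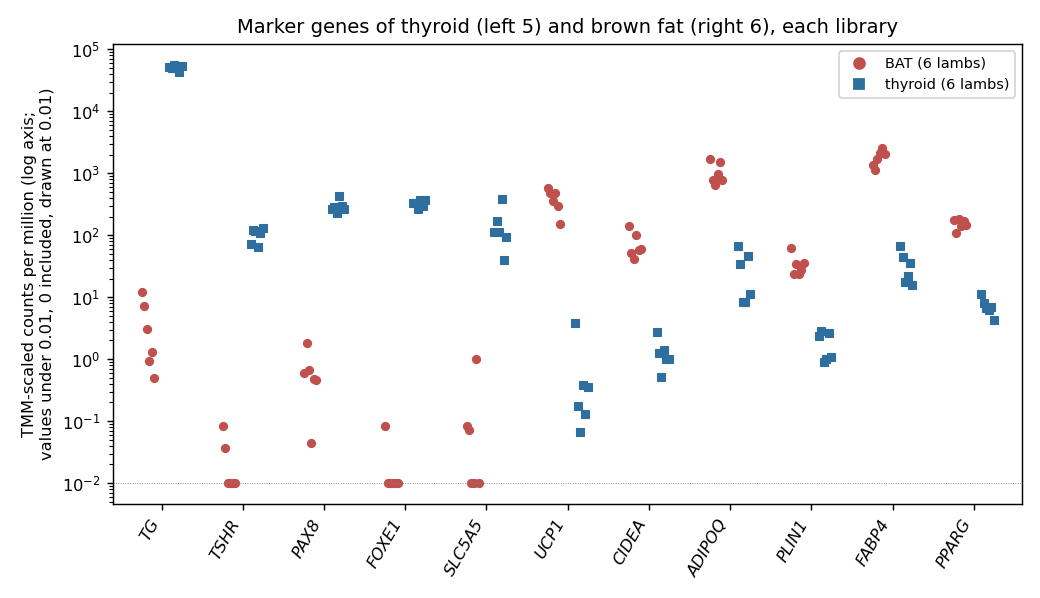
The level of 5 thyroid markers and 6 brown fat markers is drawn on a log axis for each BAT library (circles) and thyroid library (squares) of the 6 cold lambs, with values under 0.01 CPM, 0 included, drawn at 0.01. No marker overlaps between the tissues, and SLC5A5, TG in BAT and UCP1 in thyroid show the widest spread among lambs.

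The genes that make thyroid hormone were higher in thyroid, with exceptions. Of the 17 genes on the list for hormone synthesis 15 were tested, 11 were called higher in thyroid, 2 were called higher in BAT, and the median log2FC was -7.19 (-6.50 with DUOXA1, which had no count in BAT, at its bound). Of the 15, 4 had under 10 reads in every BAT library and so passed the filter through thyroid alone.

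The thyroid level of the iodide symporter varied among lambs. SLC5A5, the sodium/iodide symporter of the basal membrane (chromosome 5, 5259948–5272825, minus strand), had 114, 170, 112, 389, 39.4 and 91.8 CPM in thyroid. Lamb 4 was the highest and lamb 5 the lowest, while 28 counts were found in the 6 BAT libraries together. Its log2FC was -9.27 ± 0.85 (edgeR adjusted p = 1.11e-05). SLC26A7, an anion exchanger linked to iodide transport into the follicle, had 462–967 CPM in thyroid and 1.45–5.57 CPM in BAT, with a log2FC of -7.68 ± 0.20. SLC26A4, the anion exchanger pendrin, had no count in thyroid and 2 counts in BAT, and was not tested. ANO1, a chloride channel that also passes iodide, was called higher in BAT, with 30.4–53.6 CPM there against 8.95–12.1 CPM in thyroid and a log2FC of 1.79 ± 0.11.

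The oxidase that supplies hydrogen peroxide in the follicle was present with its maturation factors. DUOX2 had 94.0–253 CPM in thyroid and 0.555–1.34 CPM in BAT, and its factor DUOXA2 had 104–153 CPM against 0.610–3.16 CPM. DUOX1 was lower, with 8.74–18.8 CPM in thyroid, and per kb of exon its mean thyroid level was 2.15 CPM against 27.8 CPM for DUOX2. DUOXA1 had 11.3–32.5 CPM in thyroid and no count in BAT, which made it at least 75.5-fold higher in thyroid, with the floor set at 3 counts in a library. The genes of the DUOX group lie beside each other on chromosome 7, and DUOX2 and DUOXA2 overlap at their ends, so that their reads could not be told apart there if strand was not used in counting.

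The receptor and the recycling enzyme were close to absent from BAT. TSHR, the receptor for thyrotropin (chromosome 7, 96657001–96830180, plus strand), had 71.7, 121, 116, 63.4, 109 and 130 CPM in thyroid. Only 2 counts were found in BAT, which gave a ratio of 6700 with a 95% counting interval of 1855–55326. IYD, which recovers iodide from unused iodotyrosines, had 171–421 CPM in thyroid and 1 count in BAT, a ratio of 36840 (6612–1455100).

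DIO1 went the other way. This deiodinase removes iodine from thyroid hormone and is known in thyroid, liver and kidney of many mammals. In the thyroid of the cold lambs it had 0.851, 0.699, 0.708, 0.490, 0.616 and 0.556 CPM. In BAT it had 24.6, 8.65, 16.8, 4.89, 4.03 and 19.2 CPM, so that the lowest BAT library was above the highest thyroid library, and the log2FC was 4.07 ± 0.32 (edgeR adjusted p = 1.96e-06). DIO2, the deiodinase that activates thyroid hormone inside brown adipocytes, had 21.6, 10.3, 9.15, 46.1, 12.1 and 6.23 CPM in BAT and 0.572–1.96 CPM in thyroid (log2FC 3.73 ± 0.26, edgeR adjusted p = 8.05e-07). Both deiodinases were thus called higher in BAT. Lamb 4 had the highest DIO2 and a low DIO1.

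Transcription factors of the thyroid were among the largest differences, and all 5 on the list were called higher in thyroid, with a median log2FC of -8.82, although 2 of them passed the filter through thyroid alone. FOXE1, a forkhead factor of the thyroid bud (chromosome 2, 52485324–52487862, minus strand), had 328, 333, 263, 373, 301 and 371 CPM in thyroid. It had 1 count in BAT, in lamb 1, a ratio of 43195 (7753–1706100). NKX2-1, a homeobox factor shared with lung and forebrain, had 237–345 CPM in thyroid and 2 counts in BAT. PAX8, a paired-box factor that drives TG, had 226–424 CPM in thyroid and 0.0441–1.85 CPM in BAT, with a log2FC of -8.82 ± 0.48. HHEX and GLIS3, which act in several other tissues, differed less, with log2FC of -3.11 ± 0.11 and -2.60 ± 0.22.

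Genes of epithelial cells marked the thyroid as broadly as the hormone genes did. Of 27 tested genes on the follicular epithelium list 26 were called higher in thyroid and none higher in BAT, with a median log2FC of -5.99, and 5 of the 27 passed the filter through thyroid alone. EPCAM, an epithelial adhesion molecule, had 116–196 CPM in thyroid and 4 counts in all BAT libraries together (log2FC -12.12 ± 0.23, edgeR adjusted p = 7.89e-10). CLDN3, a tight-junction protein, had 119–193 CPM against 0.0380–0.255 CPM. Keratins were not fully absent from BAT: KRT8 had 108–221 CPM in thyroid and 0.679–4.69 CPM in BAT. CDH1, the E-cadherin of adherens junctions, reached 2.22 CPM in BAT of lamb 3, while lambs 1 and 5 had no count there. LAMB3, a laminin chain, was the member that was not called, with a log2FC of 0.97 ± 0.21 (called without lamb 4, 5 or 6, at 1.01, 1.02 and 1.13).

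Most genes that fold, secrete and digest proteins such as thyroglobulin were not called. Of 28 secretory pathway chaperones 2 were called, both higher in thyroid, and the median log2FC was -0.38. These were ERO1B, an oxidase that helps to form disulfide bonds, with 38.8–109 CPM in thyroid and 3.31–7.23 CPM in BAT, and HERPUD1, a factor of protein degradation at the endoplasmic reticulum, with log2FC of -3.69 ± 0.16 and -1.79 ± 0.12. Of 18 lysosomal genes 4 were called higher in thyroid (22.2%, against 17.8% of all genes), at a median of -0.11. CTSB, a protease that acts on thyroglobulin, had 648, 577, 510, 584, 418 and 605 CPM in thyroid and 63.5, 62.3, 42.2, 75.3, 93.7 and 51.8 CPM in BAT (log2FC -3.14 ± 0.19, edgeR adjusted p = 2.69e-07). CTSH followed with -1.55 ± 0.16, and CTSS and PSAP with -1.53 ± 0.39 and -1.01 ± 0.18. PSAP fell short of the threshold without lamb 1, 3 or 6 (-0.97, -0.92 and -0.91). Both lists had a smaller share of calls than the 38.1% of all genes.

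**Figure D3:**
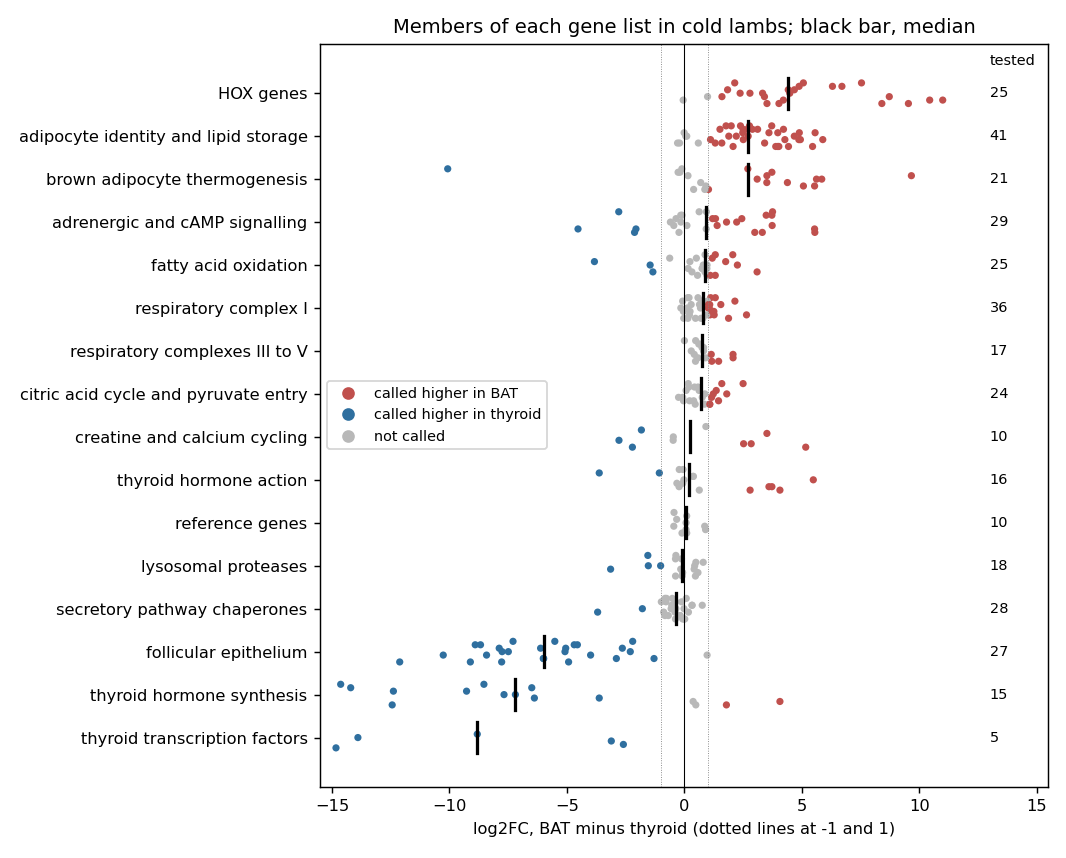
Each point is a tested member of a gene list, placed by its log2FC of BAT minus thyroid on the x axis and coloured by its call, with a black bar at the median and the number tested at the right. The medians run from -8.82 for thyroid transcription factors to 4.42 for HOX genes, and UCP3 at the far left of the thermogenesis list and DIO1 at the right of the hormone synthesis list stand against their lists.

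In BAT, 35 of 41 genes of adipocyte identity and lipid storage were called higher than in thyroid and none lower, with a median log2FC of 2.72. The first of these is the master factor PPARG, which had 173, 108, 180, 141, 171 and 144 CPM in BAT and 4.22–11.1 CPM in thyroid (log2FC 4.43 ± 0.19, edgeR adjusted p = 3.31e-08). FABP4, the carrier of fatty acids in adipocytes (chromosome 9, 62825793–62830309, minus strand), had 1370, 1130, 1692, 2079, 2525 and 2011 CPM in BAT. In thyroid it had 67.6, 44.5, 17.7, 22.1, 36 and 15.9 CPM, and the log2FC was 5.89 ± 0.43 (edgeR adjusted p = 1.78e-06). ADIPOQ, the hormone adiponectin, had 1712, 783, 639, 979, 1515 and 782 CPM in BAT and 68.1, 33.8, 8.37, 8.31, 46.6 and 11.1 CPM in thyroid. The thyroid of lamb 1 thus had the highest ADIPOQ, FABP4 and UCP1 of the thyroid libraries. What part fat tissue attached to the gland had in these values was not tested.

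Genes for the storage and release of triglyceride were among them. PLIN1, the coat protein of lipid droplets, had 23.5–62.7 CPM in BAT and 0.885–2.86 CPM in thyroid (log2FC 4.28 ± 0.32). LIPE, the hormone-sensitive lipase, had 57.2–116 CPM against 2.24–4.91 CPM (4.68 ± 0.15), while PNPLA2, the lipase that acts first, was more widely shared with 324–564 CPM against 88.8–155 CPM (1.77 ± 0.17). AQP7, the channel through which glycerol leaves the cell, had 58.6–126 CPM against 0.686–3.12 CPM. LEP, the satiety hormone leptin, was called too, at a low level of 0.751–5.88 CPM in BAT. Genes of fatty acid synthesis differed among themselves: ACACA was called at 1.59 ± 0.21, and FASN, the synthase itself, had 81.8–116 CPM in BAT and 88.5–114 CPM in thyroid. CFD, the complement factor adipsin, overlapped fully, with 10.7–20.2 CPM in BAT of lambs 2, 3, 5 and 6, 26.3 CPM in lamb 1, 109 CPM in lamb 4, and 16.6–35.1 CPM in thyroid.

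Of 21 tested genes of brown adipocyte thermogenesis 12 were called higher in BAT and 1 higher in thyroid, with a median log2FC of 2.7. The call in thyroid was UCP3, which had under 10 reads in every BAT library and so passed the filter through thyroid alone. CIDEA, a lipid droplet protein used as a brown fat marker (chromosome 23, 48267310–48277937, plus strand), had 141, 52.1, 41.4, 98.8, 56.9 and 59.6 CPM in BAT and 0.509–2.75 CPM in thyroid (log2FC 5.85 ± 0.14, edgeR adjusted p = 1.24e-09). The transcription factors PRDM16 and EBF2, which commit cells to the brown lineage, had log2FC of 4.39 ± 0.17 and 2.7 ± 0.13. Of the coactivators of mitochondrial biogenesis, PPARGC1B had 18.8–44.5 CPM in BAT and 0.713–1.05 CPM in thyroid (5.07 ± 0.17). PPARGC1A, the coactivator best known for its induction by cold, had 22.4–57.5 CPM in BAT and 12.3–24.8 CPM in thyroid, overlapped between the tissues and was not called at 0.87 ± 0.22 (edgeR adjusted p = 0.00502), although it was called without lamb 6 at 1.02. ZIC1, LHX8, ELOVL3, FGF21 and ESRRG, further genes linked to brown fat, had too few counts to be tested, and ZIC1 had no count in any of the 12 libraries.

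The 3 uncoupling proteins had 3 different patterns. UCP1 was a BAT gene. UCP2, which is found in many tissues, had 128, 143, 97.0, 133, 120 and 123 CPM in BAT and 138, 180, 139, 123, 163 and 151 CPM in thyroid, with overlapping ranges and a log2FC of -0.27 ± 0.11. UCP3, known from skeletal muscle and brown fat of rodents (chromosome 15, 56544203–56554645, minus strand), had 16.3, 21.2, 25.7, 19.8, 19.3 and 18.9 CPM in thyroid. It had no count in BAT of 5 lambs and 2 counts in lamb 5, a ratio of 1330 (368–10985). Per kb of exon, the mean level of UCP1 in BAT was 243 CPM, that of UCP2 was 76.1 CPM in BAT and 91.6 CPM in thyroid, and that of UCP3 in thyroid was 14.9 CPM. UCP2 lies close to UCP3 on chromosome 15, on the same strand. The summed level of the skeletal muscle list was 17.3–24.6 CPM in 5 thyroid libraries and 140 CPM in lamb 4, and its part in the UCP3 values was not tested.

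Of 9 tested receptors for noradrenaline 8 were called higher in BAT and 1 higher in thyroid. ADRB3, the β3 receptor of adipocytes, had 25.5, 10.8, 9.26, 14.6, 19.4 and 8.50 CPM in BAT and 0.0443–0.764 CPM in thyroid (log2FC 5.54 ± 0.31, edgeR adjusted p = 1.78e-07). The β1 receptor ADRB1 had a log2FC of 3.75 ± 0.24. ADRA1A, an α1 receptor, had 26.1, 19.5, 21.6, 23.6, 17.9 and 20.0 CPM in BAT and 0.290–0.633 CPM in thyroid, a narrower range in BAT than that of ADRB3. ADRA1B was the one called higher in thyroid, at -2.06 ± 0.28.

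Downstream, some cyclases and phosphodiesterases were called in opposite directions. Of the 29 tested adrenergic and cAMP genes 14 were called higher in BAT (48.3%, against 20.3% of all genes). In thyroid 4 were called higher (13.8%, against 17.8%). The 29 include the 9 receptors, with 8 of the BAT calls and 1 of the thyroid calls, so these shares do not describe the downstream genes alone. The cyclase ADCY4 had 206–385 CPM in BAT and 17.6–22.4 CPM in thyroid (3.74 ± 0.16), whereas ADCY9 had 35.5–114 CPM in thyroid and 8.01–10.9 CPM in BAT (-2.79 ± 0.19). Among the phosphodiesterases that break down cAMP, PDE3B was higher in BAT at 3.73 ± 0.21, and PDE8B was higher in thyroid, with 121–158 CPM against 4.67–7.06 CPM and -4.53 ± 0.13 (edgeR adjusted p = 2.23e-09). PRKAR2B, a regulatory subunit of protein kinase A, was called higher in BAT at 3.00 ± 0.20, and the catalytic subunits PRKACA and PRKACB were not called.

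Of 16 tested genes of the response to thyroid hormone 5 were called higher in BAT (31.25%, against 20.3% of all genes). In thyroid 2 were called higher (12.5%, against 17.8%), and the median log2FC was 0.18. Of the receptors, THRA had 36.6–49.3 CPM in BAT and 39.0–59.2 CPM in thyroid and was not called (-0.06 ± 0.11). THRB was low in both tissues, with 1.22–3.23 CPM in BAT and 0.154–0.480 CPM in thyroid, and was called higher in BAT at 2.80 ± 0.29. RXRG, a partner receptor, had 67.0, 40.9, 34.4, 42.7, 40.4 and 39.3 CPM in BAT and 0.531–1.83 CPM in thyroid (5.49 ± 0.19, edgeR adjusted p = 7.35e-09), whereas its relatives RXRA and RXRB were not called.

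The mitochondrial lists had medians under 1. Of 36 genes of respiratory complex I 15 were called higher in BAT (41.7%, against 20.3% of all genes) and none lower, with a median log2FC of 0.78. NDUFA10 differed most, with 99.8, 93.1, 89.9, 96.3, 79.3 and 71.7 CPM in BAT and 11–18.9 CPM in thyroid (2.65 ± 0.14), and NDUFV1 followed with 2.15 ± 0.11. Of 24 genes of the citric acid cycle and pyruvate entry 9 were called higher in BAT (37.5%, median 0.70), among them SDHA with 131–154 CPM against 34.7–46.8 CPM, while the citrate synthase CS was at 0.22 ± 0.09. Of 17 tested genes of complexes III to V 5 were called (29.4%, median 0.75), and 21 of the 38 listed symbols did not match a name in the count table. With scaling to the reference genes the called members became 22, 12 and 10, so that these counts depend on a shift that all genes share. PC, the carboxylase that refills the cycle, had 170, 64.8, 87.7, 72.8, 384 and 96.2 CPM in BAT and 13.6–28.4 CPM in thyroid, lamb 5 being far above the others.

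Genes of fatty acid oxidation were called in both directions. Of 25 tested genes 8 were called higher in BAT (32%, against 20.3% of all genes) and 3 higher in thyroid (12%, against 17.8%), at a median of 0.88. With scaling to the reference genes the calls became 16 and 3 at a median of 1.22. The mitochondrial enzymes HADHA, HADHB and ACADVL had log2FC of 1.32 ± 0.14, 1.32 ± 0.11 and 1.76 ± 0.12. ETFDH, which passes electrons of fatty acid oxidation to the respiratory chain, had 45.1–87.4 CPM in BAT against 9.82–14.8 CPM in thyroid (2.26 ± 0.16). PDK4, the kinase that holds back the use of glucose, had 246, 443, 110, 192, 468 and 206 CPM in BAT and 16–46.6 CPM in thyroid (3.10 ± 0.22, edgeR adjusted p = 7.51e-07). The carnitine palmitoyltransferases divided: CPT1A had 119–202 CPM in BAT and 54.8–92.5 CPM in thyroid and just missed the call at 0.96 ± 0.18, which it passed without lamb 2, 5 or 6 (1.03, 1.02 and 1.08), and CPT1B was called higher in thyroid at -1.34 ± 0.19. FABP3, the fatty acid carrier of heart and muscle, had 88.2–119 CPM in thyroid and 4.71–10.1 CPM in BAT (-3.83 ± 0.14, edgeR adjusted p = 8.86e-09). Per kb of exon its mean thyroid level was 119 CPM, against 85.1 CPM for FABP4 in the same tissue. SLC27A1, a fatty acid transporter, was higher in thyroid at -1.46 ± 0.13. Without lamb 6, 12 genes of this list were called higher in BAT.

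Energy-wasting cycles that run beside UCP1 were also divided. Of the 10 genes for creatine and calcium cycling 4 were called higher in BAT (40%, against 20.3% of all genes). In thyroid 3 were called higher (30%, against 17.8%). ALPL, the alkaline phosphatase that splits phosphocreatine in mouse brown fat, had 14.9, 13, 14.7, 15.0, 13.2 and 16.4 CPM in BAT and 0.243–0.656 CPM in thyroid (5.17 ± 0.24, edgeR adjusted p = 4.08e-08). CKMT2, a mitochondrial creatine kinase, was called higher in BAT at 3.52 ± 0.21, whereas SLC6A8, the transporter that takes up creatine, and GAMT, which makes it, were called higher in thyroid at -2.78 ± 0.13 and -1.83 ± 0.16. RYR2, a calcium release channel, had 5.18–12 CPM in BAT and 0.638–1.73 CPM in thyroid (2.85 ± 0.17).

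HOX genes that could be tested were mostly higher in BAT. These genes lie in 4 clusters and mark the position of a cell along the body axis, low paralog numbers in front and high numbers at the back. The counts held 37 HOX genes, of which 25 were tested, and 23 of these were called higher in BAT and none higher in thyroid, with a median log2FC of 4.42. Of these 25, 6 had under 10 reads in every thyroid library, so that they passed the filter through BAT alone and had to differ. In paralogs 1–3, 6 of 8 genes were tested and 4 called, at a median of 1.99, and in paralogs 4–5, 4 of 5 were tested and called, at 3.61. In paralogs 6–8 the 8 genes were tested and called, at 4.98, 1 of them having passed through BAT alone. In paralogs 9–13, 7 of 16 genes were tested, 5 of them through BAT alone, and the 7 were called at 8.72 (6.28 with genes that had no thyroid count at their bound), while the other 9 had too few counts, so that nothing is read from this count or from the order of the medians. The genes of paralogs 9–13 together had 54.5–103 CPM in BAT and 0.533–1.96 CPM in thyroid.

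HOXA9 (chromosome 4, 75755163–75762202, plus strand) had 41.3, 28.9, 38.9, 24.9, 46.6 and 28.8 CPM in BAT and 0.0444–0.133 CPM in thyroid (log2FC 8.41 ± 0.17, edgeR adjusted p = 7.89e-10). HOXC9 (chromosome 3, 142051006–142054267, minus strand) had 27, 16.9, 15.0, 11.9, 14.7 and 14.2 CPM in BAT and 5 counts in all thyroid libraries, with lamb 1 above the other lambs. HOXA10, HOXC10 and HOXC11 had no count in thyroid and were at least 114-fold, 77.5-fold and 23.6-fold higher in BAT, with the floor at 3 counts in a library. At the other end, HOXB2 had 7.12–12.5 CPM in BAT and 8.07–12 CPM in thyroid, and HOXA2 was not called at 0.99 ± 0.26 (called without lamb 4, at 1.23). HOXB1 had 61 counts in thyroid and none in BAT and was not tested. HOXD3 had 42.5–60.2 CPM in BAT against 2.08–3.16 CPM in thyroid (4.21 ± 0.14).

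The thyroid of lamb 4 stood apart within the HOXB cluster. HOXB6 had 1.16, 0.306, 3.16, 26.1, 1.43 and 0.556 CPM in thyroid and 31.7–68.3 CPM in BAT, and the thyroid of lamb 4 was also the highest for HOXB5, HOXB7, HOXB8 and HOXB9. For HOXB8 its value of 3.41 CPM was above all BAT libraries, and the call of HOXB8 (2.14 ± 0.81, edgeR adjusted p = 0.0361) was lost without lamb 1, 2, 5 or 6 (log2FC 1.67–2). Without lamb 4 the median log2FC of the HOX list was 4.98.

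**Figure D4:**
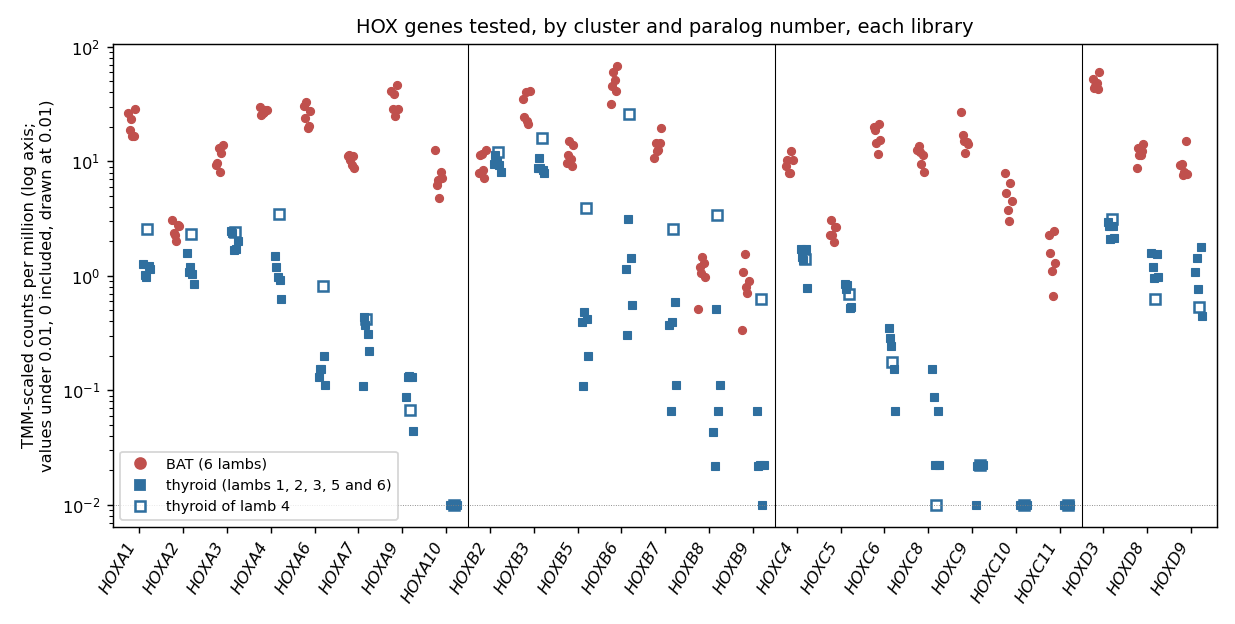
The level of the 25 tested HOX genes is drawn on a log axis for each BAT library (circles) and thyroid library (squares, lamb 4 open), ordered by cluster and paralog number, with values under 0.01 CPM, 0 included, drawn at 0.01. The tissues lie together for HOXB2 and apart for HOXA9, and the open square of lamb 4 lies above the other thyroid libraries from HOXB5 to HOXB9.

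Genes restricted to a tissue were defined as called genes with at least 10 CPM in every library of that tissue and at most 1 CPM in every library of the other. There were 15 such genes for BAT and 95 for thyroid, which became 8 and 11 when 10 reads were required in 10 libraries. That filter asks for reads in both tissues, so by design it removes genes near 0 in 1 tissue. Effective library sizes were 11779252–27520564 in BAT and 44902922–45828350 in thyroid. A level under 1 CPM thus stands for fewer reads in BAT, and nothing is read from the fall to 8 and 11. Whether the deeper sequencing of thyroid genes outside LOC114112617 and LOC114115287 has a part in the difference between 15 and 95 was not tested. The 5 with the highest level restricted to BAT, leaving out genes with a LOC name only, were SSUH2, HOXA9, PFKFB1, AQP3 and HOXA6. PFKFB1, an enzyme that tunes glycolysis, had 35.6, 20.6, 32.3, 28, 31.2 and 42.2 CPM in BAT and 0.133–0.786 CPM in thyroid (6.40 ± 0.33, edgeR adjusted p = 1.37e-07). AQP3, a channel for water and glycerol, had 16.8–52.3 CPM in BAT against 0.133–0.807 CPM, and SSUH2 had 15.7, 44.9, 39.9, 12.3, 81.6 and 37.4 CPM against 0.243–0.989 CPM, a wide spread within BAT. The other genes restricted to BAT included TBX5, GATA3 and DACH1, all developmental transcription factors, ADRA1A, ALPL, TRIB3 and HCRTR1, a receptor for the neuropeptide orexin.

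By the same rule the 5 with the highest level restricted to thyroid were CALCA, FOXE1, NKX2-1, IYD and SLC4A5. CALCA owed its place to lamb 4, without which its mean fell from 740 to 129 CPM and its rank among these genes to 10. SLC4A5, a bicarbonate cotransporter, had 180, 165, 197, 133, 212 and 262 CPM in thyroid and 0.388–0.909 CPM in BAT (-8.31 ± 0.19, edgeR adjusted p = 9.95e-10). Among genes with a symbol, ranges that did not overlap between the tissues and more than 3 counts in BAT, the log2FC of TG and EPCAM were the largest in thyroid, followed by CALCA, RGS8 and MUC15. The rule on counts left out 82 called genes on the thyroid side. Among these were FOXE1, IYD, NKX2-1 and TSHR, with log2FC of -14.83, -14.63, -13.90 and -12.44, beyond that of EPCAM. RGS8, a regulator of G-protein signalling, had 120–171 CPM in thyroid and 14 counts in BAT (-10.42 ± 0.26), and MUC15, a membrane mucin, had 130–217 CPM and 16 counts (-10.32 ± 0.24). Among those with more than 3 counts in thyroid, which leaves out HOXA10, HOXC10 and HOXC11, UCP1 and HOXC9 were followed on the BAT side by DMRT2, HOXA9 and CYLC1. DMRT2, a transcription factor of the DM-domain family, had 6.54–13.4 CPM in BAT and 4 counts in thyroid (9.17 ± 0.39), and CYLC1, known as a gene of the sperm head, had 143, 107, 93.8, 87.6, 45.3 and 85.9 CPM in BAT and 0.0221–1.31 CPM in thyroid (8.25 ± 0.46, edgeR adjusted p = 3.44e-07).

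Markers of other cell types differed as well. C cell genes were called higher in thyroid for 7 of 9 tested and higher in BAT for none, or for 4 and 2 with scaling to the reference genes, and 3 of the 9 had under 10 reads in every library of 1 tissue. CALCA, the gene of calcitonin (chromosome 15, 40409294–40412322, minus strand), had 72.6, 15.5, 381, 3792, 108 and 69.4 CPM in thyroid, and at most 0.333 CPM in BAT. Lamb 4 was highest and lamb 2 lowest, a difference much larger than that of TG. The summed C cell list was 4289 CPM in lamb 4 against 78.5–465 CPM in the other thyroid libraries and 9.25–20.5 CPM in BAT. Without lamb 4, 5 members were called higher in thyroid and 2 higher in BAT, and without lamb 3, 4 members were called higher in thyroid. CASR, the calcium receptor of parathyroid and C cells, had 25.2 CPM in the thyroid of lamb 4 and 0.989–2.99 CPM in the others. PTH, the parathyroid hormone, had 2.85 CPM in the thyroid of lamb 4, and no count in BAT. The part of tissue sampling in the values of lamb 4 was not tested.

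Endothelial genes were higher in BAT for 13 of 14 tested genes, at a median log2FC of 2.31. VWF, the clotting factor stored in endothelial cells, had 1058, 893, 899, 955, 733 and 755 CPM in BAT and 91.9, 76.4, 67.8, 53.0, 75.5 and 68.2 CPM in thyroid (3.62 ± 0.14, edgeR adjusted p = 1.55e-08). PECAM1, an adhesion molecule of vessel walls, had 437–728 CPM against 76.6–129 CPM. The summed list was 3566–4680 CPM in BAT and 667–851 CPM in thyroid, without overlap. EMCN, a sialomucin of capillaries and veins, was the member that was not called, with 32.2 CPM in BAT of lamb 1 and 65.5–85.8 CPM in the other lambs, and it was called without lamb 1 (log2FC 1.06).

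Other tissues that lie next to the dissected pieces mostly gave low values. Kidney markers were near 0 in BAT, with a list sum of 1.10–2.49 CPM, and LRP2 was the member that passed the filter, at 61.0–116 CPM in thyroid, where it is a known receptor of thyroglobulin. The adrenal list summed to 2.36–8.77 CPM in BAT and 1.4–3.45 CPM in thyroid, and its defining gene CYP11A1 had 1 count in BAT and none in thyroid. The thymocyte list summed to 3.99–13 CPM and 4.17–13.2 CPM, and RAG1 and RAG2 had no count in either tissue. Of 14 tested skeletal muscle genes 7 were called higher in BAT (50%, against 20.3% of all genes). In thyroid 2 were called higher (14.3%, against 17.8%). Of the 14, 2 had under 10 reads in every library of 1 tissue. The sum of this list was 34.4–46.8 CPM in BAT. ALAS2, a gene of haem synthesis in red cells, was called higher in BAT at 4.44 ± 0.35. The macrophage list overlapped fully, at 92.1–556 CPM in BAT and 122–255 CPM in thyroid, with BAT of lamb 4 highest. Of its 11 members 3 were called higher in BAT (27.3%, against 20.3% of all genes).

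**Figure D5:**
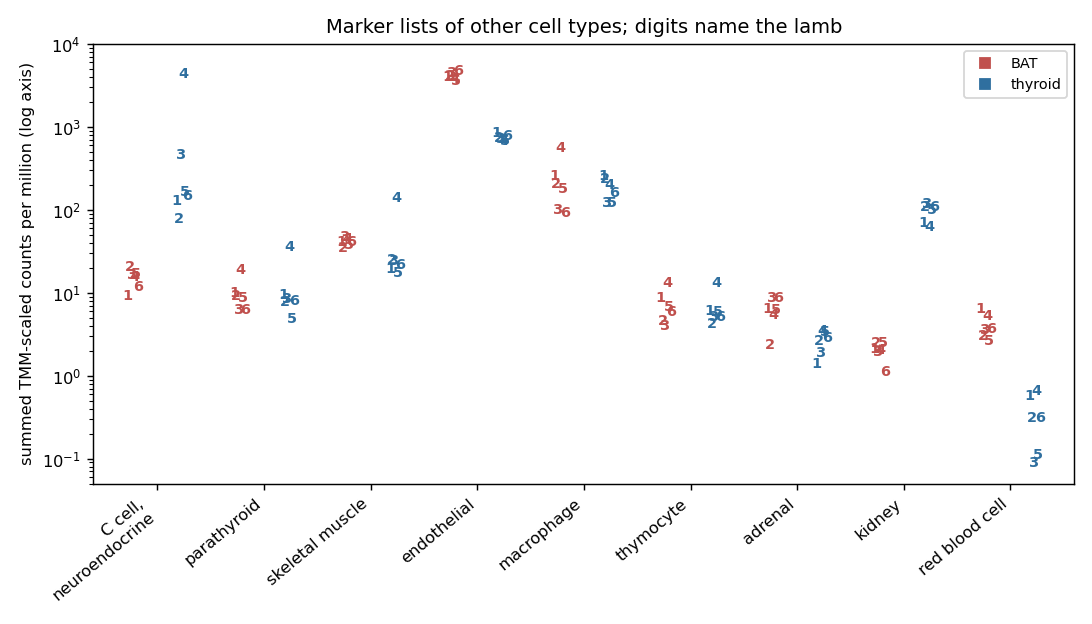
The summed level of each marker list of other cell types is drawn on a log axis for BAT and thyroid, and each digit stands for 1 lamb. The endothelial sums of the tissues lie apart, while lamb 4 lies highest for C cell, parathyroid and skeletal muscle lists in thyroid and for the macrophage list in BAT.

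Much of the tissue difference was also seen in lambs that had not been kept at 4 °C. In libraries of the 6 ambient lambs, fitted on their own, 5859 of 16533 tested genes were called, and 4974 of the 6292 genes called in cold lambs were called in the same direction, which was 79.1% of the cold calls and 84.9% of the ambient calls. In the 3 control lambs, 1796 of 16006 genes were called, and 1675 of them matched a call of the cold lambs in direction (26.6% and 93.3%). A fit of 3 lambs has less power to call genes, and 5634 of the 6292 genes had the same sign in it. Like the other lambs, the controls had been born outdoors, and their temperature before sampling is not given. The log2FC of UCP1 was 7.78 ± 0.75 in ambient and 7.97 ± 0.60 in control lambs, and its difference between cold and ambient lambs was 2 ± 0.98 (edgeR adjusted p = 0.674). For TG the values were -13.73 ± 1.04 and -15.57 ± 1.68. DIO1 had 5.26 ± 0.61 and 5.72 ± 1.24, and HOXA9 had 7.18 ± 0.53 and 7.72 ± 0.74, each in the direction of the cold lambs.

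A test of whether the tissue difference itself differed between cold and ambient lambs called 1 of 17567 genes (0.00569%), HCRTR1, while 1356 genes had an unadjusted p under 0.05 and the Wald test of DESeq2 called 76. Levels of genes from the interaction tests are given after TMM scaling over all 30 libraries. On this scale HCRTR1 had 11.8–31.2 CPM in BAT of cold lambs with a median of 24.6. In BAT of ambient lambs it had 3.49–13.4 CPM with a median of 6.12. In thyroid it had 0.269–0.876 CPM in cold lambs and 0.370–1.23 CPM in ambient lambs. The interaction was 2.60 ± 0.34 on the log2 scale (edgeR adjusted p = 0.0335). In BAT of the 3 control lambs it had 12.3–65.8 CPM, overlapping with the cold lambs. The number of genes called fell to 0 when cold lamb 1, 2, 3, 4 or 6 or ambient lamb 4 or 5 was left out, and rose to 2 without cold lamb 5 or ambient lamb 1, 3 or 6 and to 9 without ambient lamb 2.

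The next 2 genes missed the threshold in edgeR. CYP1A1, a target of the aryl hydrocarbon receptor, had 12.7–134 CPM in BAT of cold lambs against 0.0685–2.83 CPM in ambient lambs, and 11–87.6 CPM in thyroid of cold lambs against 0.482–14.3 CPM, with an interaction of 2.91 ± 0.46 (edgeR adjusted p = 0.0869). It was thus higher in both tissues of the cold lambs by value, and in cold lambs its levels in BAT and thyroid overlapped. SAMD11 had an interaction of 2.56 ± 0.40 with the same adjusted p of 0.0869. Both were called by the Wald test of DESeq2 (adjusted p = 1.59e-06 for CYP1A1 and 1.04e-06 for SAMD11). CYP1A1 was also called without cold lamb 5 (edgeR adjusted p = 0.0291), and SAMD11 without the lamb block (0.0371) and without ambient lamb 2 or 3 (0.0343 and 0.00917).

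Against the control lambs the test called 8 of 16996 genes (0.0471%), and 1843 had an unadjusted p under 0.05. The treated lambs were also 2 days older than the controls, so that cold and age cannot be told apart here. The calls with a larger BAT minus thyroid value in cold lambs were SEMA3G, EPHX1, ID1, TLN2, SPTBN5, IRF7 and SKA3. IL1RN was called with a smaller value, at -4.01 ± 0.45 (edgeR adjusted p = 0.0313). EPHX1, TLN2, SPTBN5, IRF7 and SKA3 were higher in thyroid than in BAT of controls, and their tissues overlapped in cold lambs. Mean TLN2 was 9.66 CPM in BAT and 54.0 CPM in thyroid of controls, against 16.6 and 18.5 CPM in cold lambs. For SEMA3G and ID1, BAT of cold lambs was above thyroid without overlap. SEMA3G, a secreted semaphorin of vessels, had 109–205 CPM in BAT of cold lambs, 31.0–71.6 CPM in BAT of controls and 80.1–118 CPM in BAT of ambient lambs, while in thyroid the groups overlapped, with 10.7–17 CPM in cold and 12.6–21.8 CPM in control lambs (interaction 2.26 ± 0.27, edgeR adjusted p = 0.0313). IRF7, a factor of the interferon response, had 4.67–35.5 CPM in BAT of cold lambs and 0.349–1.39 CPM in BAT of controls, with lamb 1 as the highest in both tissues. For both tissues the paper left out 1 control sample because its counts were outlying, whereas all 3 controls were kept here. The number of calls changed with single lambs: 105 genes were called without control lamb 2, 18 without control lamb 3, 1 without control lamb 1, and 0–4 with each cold lamb left out.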

How the data were processed

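RNA of perirenal BAT and thyroid of 15 newborn lambs had been extracted with TRIzol, enriched with oligo(dT) beads and sequenced in read pairs on BGISEQ-500. The authors made the deposited counts with FastQC 0.11.9, Trimmomatic 0.39, STAR 2.7.7a and featureCounts (Subread 2.0.0) on Oar_rambouillet_v1.0, counting multimapping reads, and deposited whole-number counts for 28524 genes without normalization. The strand setting of the counting is not given in the sources used here, so values of near-identical, overlapping and antisense genes are uncertain. The authors analysed each tissue alone, so the fit between tissues was designed here.

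All counts were used as deposited, and all 3 control lambs were kept. The main test was the robust quasi-likelihood test of edgeR 4.0.16 (R 4.3.3, limma 3.58.1) with TMM scaling and the lamb as a block, on the 16518 genes that reached 10 reads in 6 or more of the 12 libraries. P-values are 2-sided and adjusted by Benjamini-Hochberg over all genes tested. Same-numbered libraries come from the same animal, and their deviations from the tissue means correlated at 0.150–0.417 over 11798 genes, against at most 0.131 between lambs. Interactions used the libraries of both groups with lambs as blocks, while the CPM printed for their genes were scaled over all 30 libraries. Errors beside log2FC are standard errors, derived as the fitted coefficient over the square root of the F value of the test. That coefficient has no prior count, whereas the printed log2FC has, so the errors are least exact for genes near 0 counts in a tissue. A gene with 1–3 counts in a tissue is given as a ratio of library-scaled counts with an exact binomial 95% interval, and with 0 counts as a lower bound at 3 counts. These intervals and floors cover counting error only. Gene coordinates are the outermost exon ends in the count table, whose sequences were given chromosome numbers through the symbols they share with the RefSeq genes of ARS-UI_Ramb_v3.0 (at least 94.7% of the shared symbols of a sequence lay on 1 chromosome). The fits were tested on simulated counts. Libraries of the same tissue were from separate lambs and differed by more than counting noise (chi-square per degree of freedom of at least 52.4 in BAT and 36.3 in thyroid), so that none was counted as a repeat. The alternatives were reference gene scaling, the size factors and Wald test of DESeq2 1.42.0, 3 other filters, no lamb block, all 30 libraries, 2 other thresholds, leaving out LOC114112617 and LOC114115287, and each lamb left out in turn (ambient lambs chosen after the data were seen).

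Named genes are the markers of both tissues, the largest differences, the most abundant restricted genes, the extremes and the least changed member of each list, the interaction calls and the reference genes. Other list members, and libraries that stood apart, were named after their values were seen. The members and the 25 lists (507 symbols) were chosen with earlier results of these data known. Sequences were not used here. Some genes are not reported here.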

Additional observations from a re-analysis of the deposited data

Results flagged for a closer look

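For 107 genes with values in the text, the 6 within-lamb differences of log2(CPM + 0.1) were searched for a lamb far from the others. By Dixon's test 7 genes had such a lamb, which is near the rate of about 1 in 20 that chance gives. Some of the genes were named after a library was seen to stand apart. The chance rate thus does not strictly hold for this set, and nothing is read from the number flagged. In BAT minus thyroid, lamb 1 was at 8.08 for HOXC9 (others 6.62–7.12), at 1.76 for PECAM1 (2.67–2.86) and at -0.204 for EMCN (0.802–1.36). Lamb 4 was at 4.41 for HOXA6 (others 6.10–7.06) and at 1.38 for HOXB5 (4.15–5.77). Lamb 2 was at -3.40 for SLC6A8 (others -2.78 to -2.52), and lamb 3 at -0.00519 for CS (0.220–0.307).

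The tissue difference of cold lambs differed from that of ambient lambs for HCRTR1, by 2.60 on the log2 scale. From that of control lambs it differed by -4.01 for IL1RN, 2.26 for SEMA3G, 1.89 for EPHX1, 2.42 for ID1, 2.33 for TLN2, 1.85 for SPTBN5, 2.71 for IRF7 and 2.56 for SKA3, with cold and age changing together.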

How the results depend on the processing

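Of 97 called genes with values in the text, 94 kept their call and direction under each alternative of scaling, filter, tool, block or lamb that tested them, the exceptions being HOXB8, CTSS and PSAP. The filter of 10 reads in 10 libraries left 32 of the 97 untested, and 14 had an absolute log2FC under 2 and are lost at that threshold. The replicate block, which pairs the tissues of a lamb, changed few of these calls: without it 6191 genes were called (3296 in BAT and 2895 in thyroid), HOXB8 had a log2FC of 0.66, CTSS had -1.13 and neither was called, and LAMB3 was called at 1.02. The number of called genes became 11602 at the adjusted p alone (5811 and 5791) and 2860 at |log2FC| ≥ 2 (1472 and 1388), and lay between 4936 and 7757 under the other settings, 6272–6326 with a lamb left out and 6318 by DESeq2. Restricted genes became 8 in BAT and 11 in thyroid at 10 reads in 10 libraries, and 31 in BAT and 140 in thyroid with 2 CPM allowed in the other tissue.

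Interactions with the ambient lambs became 76 by DESeq2, 7 without the replicate block and 0 with all 30 libraries, and 0–9 with a lamb left out. Those with the controls became 380, 25 and 28, 14 with reference gene scaling, 14 with any gene that had a read, and 0–105 with a lamb left out.

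Genes near 0 changed sign. With reference gene scaling ACTB became 0.24, CFD 0.33, HOXB2 0.29, HUWE1 0.01, THRA 0.28 and UCP2 0.07. CFD was at 0.48 without the replicate block and 0.02 with all 30 libraries, and FASN at -0.00 with the widest filter. With a lamb left out CFD ranged from -0.33 to 0.12, HOXB2 from -0.20 to 0.04 and THRA from -0.12 to 0.01. Reference gene scaling added about 0.33 to each log2FC. The cause of the other changes was not tested. Depth outside LOC114112617 and LOC114115287 limits BAT values under about 1 CPM, above all in lamb 1.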
